A study of Mus musculus with 10 samples.

Results

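The genes described here are ID1, ID2, ID3 and ID4, which encode the inhibitors of DNA binding, together with SMAD6, SMAD7 and BAMBI, the feedback inhibitors of bone morphogenetic protein (BMP) and TGF-beta signalling. They are 7 of the 58735 human genes in the count table and were taken by symbol. They were selected on values of these same libraries, in that earlier results for them were known, so their differences between the treatments are given as a description with no test. The RNA came from tumours that LNCaP cells, a human prostate cancer line that responds to androgen, had formed under the skin of NSG mice (NOD.Cg-Prkdcscid Il2rgtm1Wjl/SzJ), which lack T, B and NK cells of their own. All mice received 4 intraperitoneal injections, a week apart, of sipuleucel-T (sip-T), a cell therapy made by exposing human blood cells to prostatic acid phosphatase joined to GM-CSF, and tumours were collected on day 7 after the last of them. Each injection held 5000000 sip-T cells in 100 µl. The 5 IL-15 tumours came from mice whose sip-T was combined with 1 µg of rhIL-15 (recombinant human interleukin 15), on which T and NK cells depend to survive and divide, and the 5 control tumours from mice given control sip-T and, by the design text, a sham dose of PBS. The sample labels and the design text differ on whether the injected cells had also been treated with IL-15, so treatment of the cells and injection of the cytokine cannot be told apart. The age of the mice and the number of cell donors are not stated in the labels.

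BMP ligands bind paired type I and type II receptor kinases, which phosphorylate SMAD1, SMAD5 and SMAD9. These enter the nucleus with SMAD4 and switch on genes such as the ID genes, whose products lack a DNA-binding region and hold back basic helix-loop-helix transcription factors by pairing with their E protein partners. The same signal induces its own brakes: SMAD6 and SMAD7 block the receptors and the signalling SMADs, and BAMBI is a membrane protein shaped like a type I receptor without a kinase. In epithelial tumours the ID genes are known mainly for keeping cells proliferating and undifferentiated, and in lymphocytes ID2 is known for its part in the making of NK and effector T cells.

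Libraries held 13560224 to 19324056 reads assigned to genes. Markers of the luminal prostate cell summed to 9014 to 14014 CPM (read counts scaled to library size) in IL-15 tumours and 8011 to 11780 CPM in control tumours, so every library carried the markers of its labelled cell type. The 12 T cell markers summed to 5.37 to 41.0 CPM in IL-15 tumours and 4.54 to 16.7 CPM in control tumours. These are bulk samples, in which fewer cells of a type and less RNA per cell cannot be told apart.

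Of the ID genes, ID2 (ENSG00000115738, chr2:8678845-8684453, plus strand, hg38) had the highest mean level in each group, though ID3 was above it in control tumours 1 and 4, and the largest difference between the treatments. It measured 5.36, 5.62, 4.67, 2.61 and 2.29 FPKM (fragments scaled for gene length and library total) in IL-15 tumours 1 to 5, against 1.72, 2.01, 2.18, 2.74 and 1.90 FPKM in control tumours 1 to 5. IL-15 tumours 1, 2 and 3 stood above every control tumour, whereas IL-15 tumours 4 and 5 lay among the controls, both under control tumour 4, so the groups overlapped. The mean was 4.11 ± 1.56 FPKM in IL-15 tumours and 2.11 ± 0.391 FPKM in control tumours (SD, n = 5 each), with a log2 fold change of 0.98 ± 0.28 (standard error) in the edgeR fit of the counts. These levels rested on 75 to 257 reads per IL-15 library and 65 to 113 reads per control library. An antisense gene that overlaps it, ID2-AS1, had 34 reads over all IL-15 libraries and 43 over all control libraries, whereas ID2 had 799 over the IL-15 libraries and 389 over the control libraries.

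ID1 (ENSG00000125968, chr20:31605283-31606515, plus strand), the ID gene most often used as a readout of BMP signalling, was scarce. Its level was 0.903, 1.17, 0.268, 0.733 and 0.490 FPKM in IL-15 tumours 1 to 5 and 1.39, 0.730, 1.02, 1.22 and 0.785 FPKM in control tumours 1 to 5. IL-15 tumours 3 and 5 lay below every control tumour, and the other three lay among the controls. The log2 fold change was -0.51 ± 0.39 (standard error), on 6 to 30 reads per IL-15 library and 14 to 30 reads per control library.

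ID3 (ENSG00000117318, chr1:23557918-23559794, minus strand), a close relative of ID1 that is also induced by BMP, varied more within the groups than between them. It measured 1.45, 2.63, 1.38, 1.26 and 0.673 FPKM in IL-15 tumours 1 to 5, against 1.82, 0.751, 1.65, 3.81 and 1.33 FPKM in control tumours 1 to 5. Control tumour 4 had the highest value, followed by IL-15 tumour 2, and the groups overlapped over most of their range. The log2 fold change was -0.32 ± 0.43 (standard error) and rested on control tumour 4, since it was 0.11 without that library.

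ID4 (ENSG00000172201, chr6:19837386-19840684, plus strand), best known from the developing brain, had 0 reads in all 10 libraries. A count of 0 allows a level of up to 3 reads, or 0.16 to 0.22 CPM depending on the library, and covers counting error only. It did not enter the fit, so 6 of the 7 genes had a fold change.

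The share of ID2 in the ID total restates the levels above and is not a further result, and it averaged higher in IL-15 tumours. Of the summed FPKM of the 4 ID genes, ID2 made up 69.5%, 59.6%, 73.9%, 56.7% and 66.3% in IL-15 tumours 1 to 5, against 34.8%, 57.6%, 44.9%, 35.3% and 47.4% in control tumours 1 to 5. The groups met at a single pair, IL-15 tumour 4 lying just under control tumour 2. The mean share was 65.2 ± 7.06% in IL-15 tumours and 44.0 ± 9.45% in control tumours (SD, n = 5 each), and the summed level itself was 6.30 ± 2.39 FPKM in IL-15 tumours and 5.01 ± 1.65 FPKM in control tumours. IL-15 tumours 4 and 5 had ID2 levels among those of the controls. The share of ID2 was above 4 of the 5 controls in IL-15 tumour 4 and above all 5 in IL-15 tumour 5. The latter had the lowest ID3 of all libraries, and its share rested on 18 reads of ID3 and 9 of ID1.

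**Figure D1:**
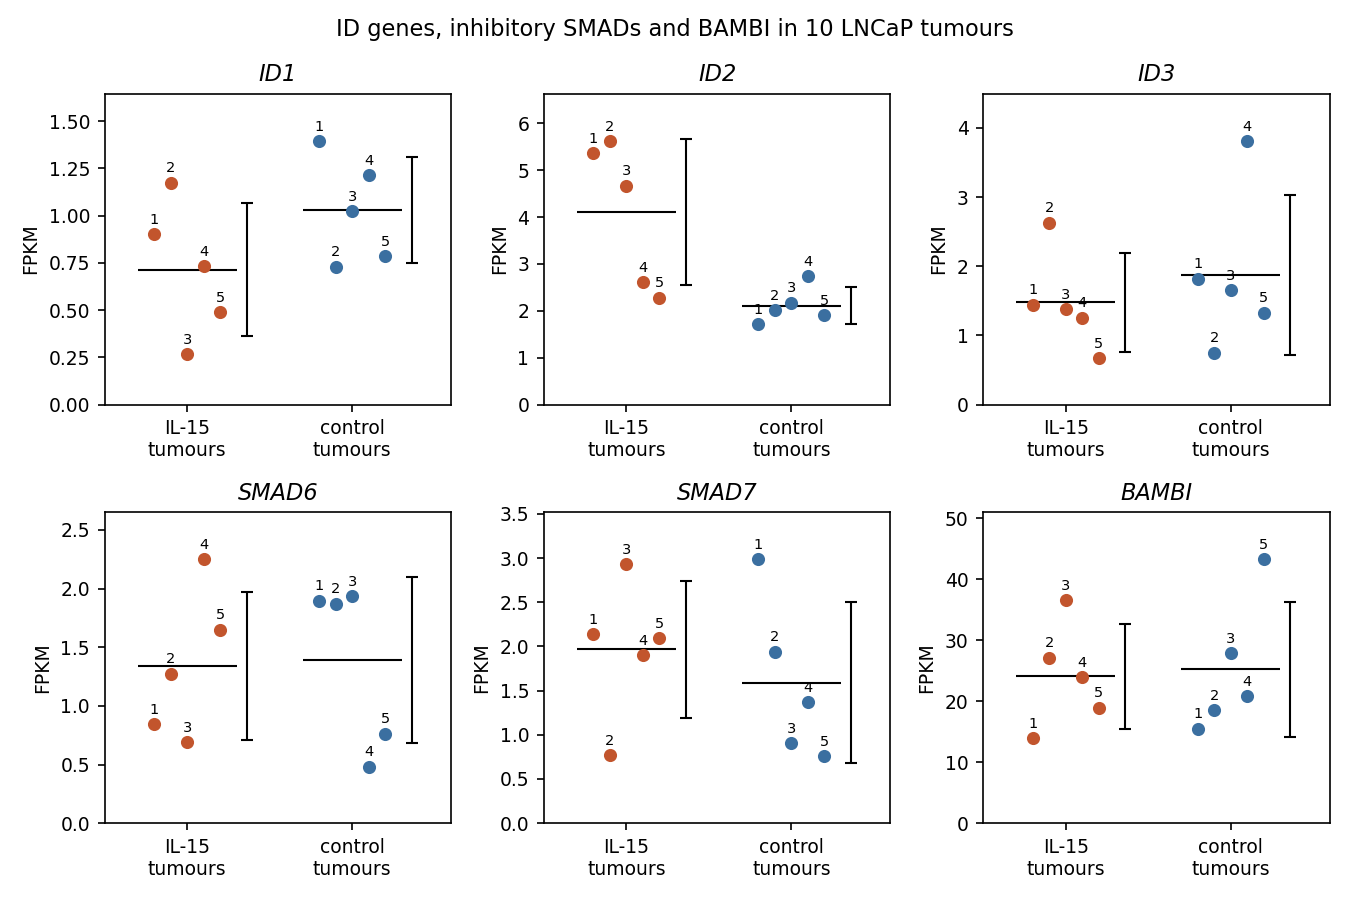
Level of each gene in FPKM (vertical axis, linear from 0) in the 5 IL-15 tumours and the 5 control tumours, with points numbered by replicate, horizontal lines at the group mean and bars of 1 SD. ID2 in IL-15 tumours 1, 2 and 3 lies between 4.67 and 5.62 FPKM, above every control tumour, while the groups of the other 5 genes overlap; ID4 had no reads and is not drawn.

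The inhibitory SMADs did not separate the treatments. SMAD6 (ENSG00000137834, chr15:66702228-66782848, plus strand), which acts mainly on BMP signals, measured 0.845, 1.27, 0.688, 2.25 and 1.65 FPKM in IL-15 tumours 1 to 5 and 1.89, 1.87, 1.93, 0.481 and 0.761 FPKM in control tumours 1 to 5. Control tumours 1, 2 and 3 lay close to each other and control tumours 4 and 5 far below them, whereas the IL-15 tumours were spread widely. Its log2 fold change was -0.04 ± 0.42 (standard error).

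SMAD7 (ENSG00000101665, chr18:48919853-48952052, minus strand), which acts on both BMP and TGF-beta receptors, measured 2.14, 0.767, 2.93, 1.90 and 2.10 FPKM in IL-15 tumours 1 to 5 and 2.98, 1.94, 0.903, 1.37 and 0.757 FPKM in control tumours 1 to 5. IL-15 tumours 1, 3, 4 and 5 lay at 1.90 FPKM or above, as did control tumours 1 and 2, while IL-15 tumour 2 was among the lowest. The log2 fold change was 0.32 ± 0.40 (standard error), and 0.12 to 0.68 when each library was left out in turn. The ratio of SMAD6 to SMAD7 in FPKM ranged from 0.235 to 1.66 in IL-15 tumours and from 0.351 to 2.14 in control tumours.

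BAMBI (ENSG00000095739, chr10:28677342-28682939, plus strand), the decoy receptor, was by far the most abundant of the genes. It measured 13.9, 27.1, 36.5, 23.9 and 18.9 FPKM in IL-15 tumours 1 to 5 and 15.5, 18.5, 27.9, 20.8 and 43.2 FPKM in control tumours 1 to 5. The lowest value was in an IL-15 tumour and the highest in a control tumour, and the others interleaved. The fit gave a log2 fold change of -0.05 ± 0.31 (standard error), on 521 to 1536 reads per IL-15 library and 626 to 1550 reads per control library.

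**Figure D2:**
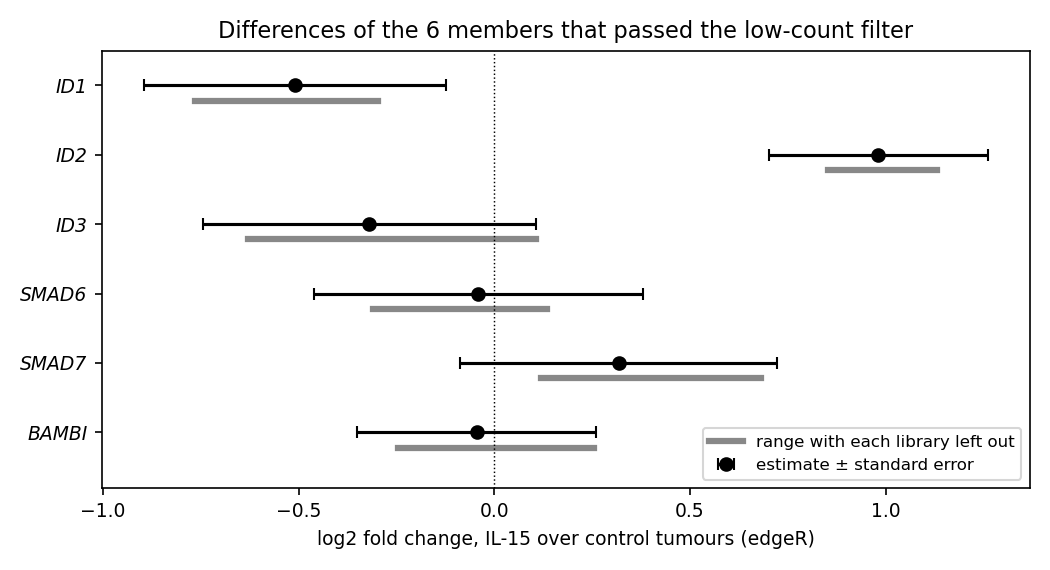
Log2 fold change of IL-15 over control tumours (horizontal axis) for the 6 genes with a fit, as the edgeR estimate with its standard error (black) and the range over fits that each leave out 1 library (grey). ID2 is at 0.98 with a range of 0.85 to 1.13, and the grey ranges of ID3, SMAD6 and BAMBI cross 0.

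Read as levels per length over all 10 libraries, the order was BAMBI at 24.6 FPKM, ID2 at 3.11 FPKM, SMAD7 at 1.78 FPKM, ID3 at 1.67 FPKM, SMAD6 at 1.36 FPKM, ID1 at 0.872 FPKM and ID4 at 0. BAMBI exceeded ID2 in all 10 libraries, by a median factor of 8.66 and by 2.60 to 22.7 across libraries, and ID2 exceeded SMAD7 in 9 of them. Further down the order was not fixed: SMAD7 exceeded ID3 in 6 libraries, ID3 exceeded SMAD6 in 5, and SMAD6 exceeded ID1 in 7. Among all protein-coding genes, BAMBI stood at the 91.8th percentile of mean FPKM, and the other 5 genes with reads between the 45.0th and the 57.9th.

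SMAD6, SMAD7 and ID3 varied most of the 6 genes between tumours of the same treatment. The SD of log2 CPM within groups was 0.81 for SMAD6, 0.77 for SMAD7 and 0.74 for ID3, which exceeded 91.7%, 90.1% and 89.2% of all 16913 genes tested. It was 0.56 for both ID1 and BAMBI and 0.46 for ID2, whose spread was the smallest of the 6.

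Over the whole table, edgeR's quasi-likelihood test called 0 of 16913 genes (0%) at a Benjamini-Hochberg adjusted p of 0.05, with 6.46% at an unadjusted p under 0.05, made up of 3.03% with a higher and 3.43% with a lower level in IL-15 tumours. DESeq2 called 0.0415% at an adjusted p of 0.05, and limma voom called 0 genes. The CPM of the groups did not overlap in 0.662% of the genes. Among the 6 genes with a fit, 0 were called by edgeR, DESeq2 or voom after adjustment, ID2 alone lay under an unadjusted p of 0.05, and 0 had groups that did not overlap. Since they were chosen with these values known, nothing is read from these counts. The fold change was above 0 for ID2 and SMAD7 and below 0 for the other 4, of which BAMBI and SMAD6 turned positive with library size alone as the scaling. The median log2 fold change of the 6 was -0.04, beside -0.01 over all genes tested (0.04 for the 6 and 0.08 over all genes with library size alone).

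The genes did not vary as one block from tumour to tumour. On log2 CPM over the 10 libraries, Pearson's r was above 0 in 7 and below 0 in 8 of the 15 pairs, with a median of -0.20. These correlations are descriptive, and all points share the scaling of their library. The highest was between ID1 and ID3, with r of 0.58 and Spearman's rho of 0.84. It was 0.58 after the mean of each group was removed and 0.49 to 0.84 when each library was left out in turn, the upper end being reached without IL-15 tumour 3, where ID1 rested on 6 reads. By r with ID1, ID3 ranked 426 of 16912 genes, and by r with ID3, ID1 ranked 874.

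The r of ID2 with ID3 was 0.31 over all libraries and 0.66 after the group means were removed, then the highest of the 15 pairs. ID1 and ID2 had an r of -0.20 over all libraries and 0.25 after centring. The inhibitory SMADs had an r of 0.13 with each other. The lowest r was -0.51, between ID3 and SMAD6, and it was -0.58 to -0.19 when each library was left out, with a rho of -0.28. After the group means were removed, the lowest was that of ID2 with SMAD6, at -0.62, beside -0.40 before. SMAD7 and BAMBI had an r of -0.49 and a rho of -0.60.

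**Figure D3:**
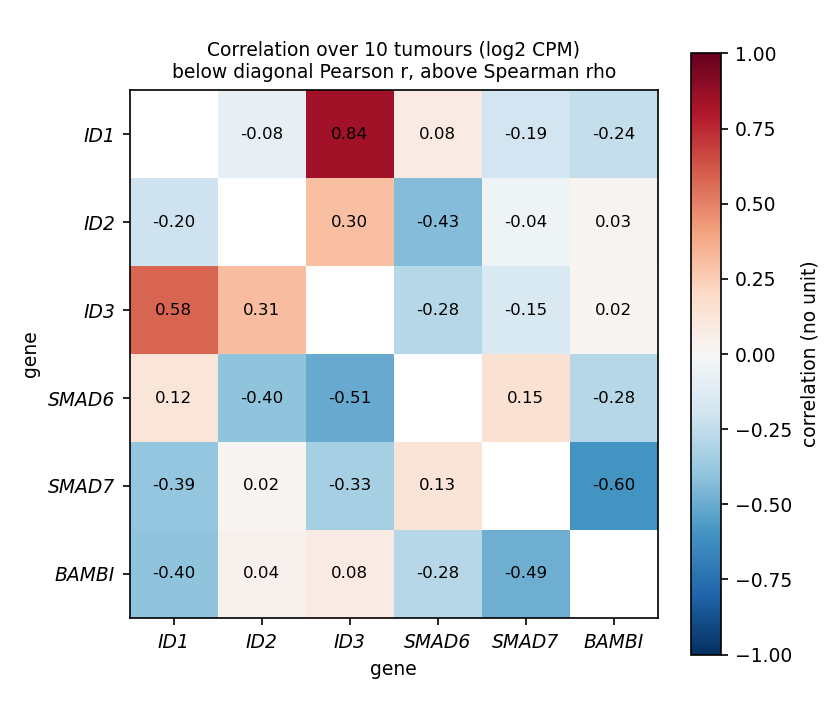
Correlation of log2 CPM over the 10 tumours for each pair of the 6 genes with a fit, with Pearson's r below the diagonal, Spearman's rho above it and colour from -1 (blue) to 1 (red). The ID1 and ID3 pair is highest at r 0.58 and rho 0.84, and 8 of the 15 values of r lie below 0.

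The genes whose pattern was most like each of the 6 were sought among 12549 protein-coding genes with a mean of at least 1 CPM, by Pearson's r of log2 CPM over the 10 libraries. None of the other genes of the set was among the 3 nearest of any. For ID2 these were NAA16, a subunit of an N-terminal acetyltransferase (r 0.94), GSTA1, a glutathione transferase (0.91), and CEP19, a centrosomal protein (0.90). GSTA1 averaged 5.23 ± 3.32 CPM in IL-15 tumours and 2.01 ± 0.495 CPM in control tumours (SD, n = 5 each). For ID1 they included ERVMER34-1, an envelope gene of an endogenous retrovirus (0.88), and PDP2, a phosphatase of pyruvate dehydrogenase (0.84). For ID3 they were PDS5B, a cohesin regulator (0.94), EFHC2, an EF-hand protein (0.93), and ZMYND8, a chromatin reader (0.90).

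For SMAD6 the nearest were RCN3, a calcium-binding protein of the endoplasmic reticulum (0.89), ELFN1, a synaptic membrane protein (0.88), and B4GAT1, a glucuronyltransferase (0.88). SMAD7 was nearest to SYT15, a synaptotagmin (0.96), C16orf96 (0.95) and NAV1, a neuron navigator (0.95). BAMBI was nearest to ZCRB1, an RNA-binding spliceosome protein (0.93), TAGLN, an actin-binding protein that TGF-beta induces (0.89), and CBWD5 (0.89), whose near-identical copies make its counts uncertain.

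Lymphocyte markers were also higher in some IL-15 tumours, which in part were those with high ID2. The 12 T cell markers summed to 41.0, 5.37, 25.5, 22.6 and 7.57 CPM in IL-15 tumours 1 to 5, against 5.25, 6.15, 16.7, 4.54 and 5.15 CPM in control tumours 1 to 5. All 12 had reads, with CD8A taking the largest part in IL-15 tumours. The 10 NK and cytotoxic cell markers summed to 38.7, 3.77, 25.1, 18.6 and 6.17 CPM in IL-15 tumours 1 to 5, against 3.14, 1.34, 15.1, 0.872 and 3.79 CPM in control tumours 1 to 5, while the defining NK gene KLRF1 had 0 reads in IL-15 libraries and 2 in control libraries.

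IL-15 tumours 1 and 3 were high in both ID2 and lymphocyte markers. IL-15 tumour 2, with the highest ID2 of all at 13.7 CPM, had a T cell sum of 5.37 CPM, within the range of the controls, and IL-15 tumour 4 had a T cell sum of 22.6 CPM with 6.38 CPM of ID2, under the 6.57 CPM of control tumour 4. The r of ID2 with the T cell sum over the 10 libraries was 0.49 with a rho of 0.42, and r was -0.07 without the 2 libraries farthest from the median of that sum. With the NK and cytotoxic sum the r was 0.47, and 0.00 without the 2 farthest libraries. The 4 pan-leukocyte markers summed to 4.04 to 28.4 CPM in IL-15 tumours and 0.989 to 12.9 CPM in control tumours, with an r of 0.50 with ID2 that was 0.37 without the 2 farthest libraries. For the 5 B and plasma cell markers, at 0.882 to 5.59 CPM in IL-15 tumours and 1.63 to 3.33 CPM in control tumours, r was 0.28, and 0.41 without the 2 farthest. What part lymphocyte RNA has in the ID2 level was not tested.

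Among the stromal lists, ID3 moved with the fibroblast and mural markers. These 8 genes summed to 79.1, 127, 78.0, 83.5 and 27.7 CPM in IL-15 tumours 1 to 5, against 75.7, 52.3, 37.8, 161 and 80.0 CPM in control tumours 1 to 5. The r with ID3 was 0.81 with a rho of 0.54, and r was 0.95 without the 2 libraries farthest from the median of the sum. Control tumour 4 and IL-15 tumour 2, the highest in ID3, were also the highest in the sum. Most of the sum was COL1A1, COL3A1 and RGS5, whereas COL1A2, which encodes the partner chain of COL1A1, had 5 reads in all IL-15 libraries and 1 in all control libraries, and DCN had 14 in IL-15 and 13 in control libraries. These are reads assigned to human genes in tumours grown in mice, and how mouse reads were handled is not given. Which cells they came from cannot be told. The r of ID3 with this sum was the largest of any of the genes with any marker list. With the same sum SMAD6 had an r of -0.58. ID1 had an r of -0.75 with the monocyte, macrophage and dendritic cell markers (rho -0.62), and -0.63 without the 2 farthest libraries. BAMBI had an r of 0.60 with these markers, and 0.26 without the 2 farthest libraries. These markers summed to only 1.38 to 3.87 CPM in IL-15 tumours and 1.47 to 2.74 CPM in control tumours, and ID1 rested on 6 to 30 reads a library. The part of stromal cells in the ID3 level was not tested.

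Endothelial markers, which matter because endothelial cells express ID1 and SMAD6, summed to 45.6 ± 14.8 CPM in IL-15 tumours and 49.3 ± 18.6 CPM in control tumours (SD, n = 5 each). VWF and EGFL7 made up nearly all of this, and the defining gene KDR had 0 reads in all 10 libraries. Whether these human reads came from endothelial cells was not tested. The r of the sum was 0.34 with ID1 and 0.37 with SMAD6, and 0.40 and 0.12 without the 2 libraries farthest from its median.

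**Figure D4:**
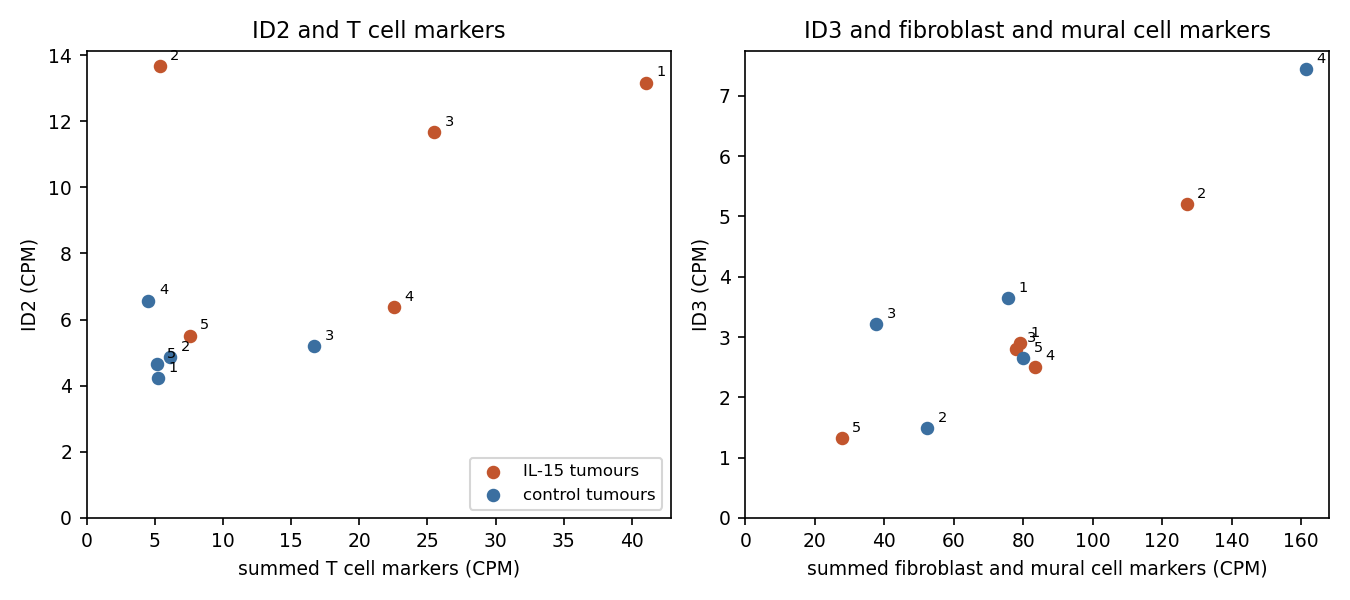
ID2 against the summed T cell markers (left) and ID3 against the summed fibroblast and mural cell markers (right), all in CPM on linear axes, with 1 point per tumour, numbered by replicate, for IL-15 and control tumours. IL-15 tumour 2 has the highest ID2 at 13.7 CPM with a T cell sum of 5.37 CPM, and control tumour 4 is highest for both ID3 and its marker sum.

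The rest of the pathway was read from 12 lists of 116 genes, of which 107 had a read and 68 passed the low-count filter and were tested with the whole table. Of these 68, 0 passed the adjusted threshold in edgeR or DESeq2 and 0 had groups that did not overlap. At an unadjusted p under 0.05, 1 was higher and 1 lower in IL-15 tumours, which is 2.94% of the 68, beside 6.46% of all genes tested. The fold change was above 0 for 32 and below 0 for 36 (43 and 25 with library size alone, 36 and 32 with upper quartile scaling), and their median on the log2 scale was -0.04 (0.05 with library size alone). These splits by sign depend on the scaling: with library size alone, in place of TMM, 10606 of all 16913 genes lay above 0, whereas 8292 did with TMM, and the list counts that moved with it are given with both values.

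Few ligands had enough reads to be tested. Of 13 BMP ligands only BMP8A and BMP8B, a pair of near-identical genes whose counts may be split between them, passed the filter, both below 0 (1 above and 1 below with library size alone). BMP8A averaged 0.994 ± 0.170 FPKM in IL-15 tumours and 1.05 ± 0.362 FPKM in control tumours (SD, n = 5 each). BMP4 had 23 reads in all IL-15 libraries and 16 in all control libraries, and BMP2 had 1 read in IL-15 and 0 in control libraries. Of the other 17 ligands of the family 8 were tested, 5 above and 3 below 0 (6 and 2 with library size alone). GDF15, a divergent member of the family, was the most abundant and averaged 625.5 ± 359 FPKM in IL-15 tumours and 649.5 ± 284 FPKM in control tumours. AMH, anti-Müllerian hormone, which signals through the BMP SMADs, measured 6.47 to 33.1 FPKM in IL-15 tumours and 4.05 to 15.3 FPKM in control tumours, with a log2 fold change of 0.89 ± 0.47 (standard error). TGFB1 had a log2 fold change of 1.03 ± 0.63 (standard error), which did not pass the test. The value for TGFB3, -1.49 ± 1.06, rested on control tumour 5, with 15.5 FPKM beside 1.06 to 2.04 FPKM in the other controls, and was 0.03 without it.

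Of the type I receptors, 2 of the 5 tested were above 0 and 3 below (3 and 2 with library size alone). BMPR1B, a receptor for BMPs, was the gene with the unadjusted p under 0.05 on the low side. It measured 16.8 to 24.1 FPKM in IL-15 tumours and 21.8 to 32.4 FPKM in control tumours, with a log2 fold change of -0.36 ± 0.16 (standard error) and an edgeR p of 0.037 before and 0.758 after Benjamini-Hochberg adjustment. Its unadjusted p stayed under 0.05 in 5 of the 10 fits that each left out 1 library, and was above it without IL-15 tumour 1, 4 or 5 or control tumour 2 or 4. It stayed under 0.05 in 7 of the 9 other settings, but not with upper quartile scaling or library size alone. BMPR1A averaged 2.50 ± 0.637 FPKM in IL-15 tumours and 2.67 ± 0.283 FPKM in control tumours, so BMPR1B was the more abundant of the pair.

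Of the type II receptors, 4 of 5 were tested, 3 above and 1 below 0 (4 and 0 with library size alone). BMPR2, which pairs with the BMP type I receptors, averaged 6.78 ± 1.83 FPKM in IL-15 tumours and 7.03 ± 1.86 FPKM in control tumours (SD, n = 5 each). TGFBR2, the receptor that binds TGF-beta itself, was not tested, with 26 reads in all IL-15 libraries, of which 17 were in IL-15 tumour 1, and 22 in all control libraries. IL-15 tumour 1 was also the tumour with the highest T cell sum. IL-15 tumours 3 and 4, the next highest in that sum, had 3 and 5 reads of TGFBR2, and control tumour 3 had 9. What part T cell RNA has in the TGFBR2 reads was not tested.

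Among the co-receptors 3 of the 5 tested were above 0 and 2 below, and TGFBR3, which presents ligand to the receptors, showed a log2 fold change of -0.56 ± 0.27 (standard error). The signalling SMADs were all present. All 6 were tested, 3 above and 3 below 0 (6 and 0 with library size alone), with log2 fold changes between -0.07 and 0.45. SMAD1, a direct target of the BMP receptors, averaged 2.02 ± 0.751 FPKM in IL-15 tumours and 1.49 ± 0.560 FPKM in control tumours. SMAD5, which has the same role, averaged 8.95 ± 1.44 FPKM in IL-15 tumours and 9.52 ± 2.72 FPKM in control tumours, and SMAD4, the common partner, 4.43 ± 0.723 FPKM in IL-15 tumours and 4.19 ± 0.827 FPKM in control tumours.

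Of 16 extracellular antagonists 4 were tested, 2 on each side of 0. TWSG1, which modulates the binding of BMP by chordin, was the most abundant, with 16.1 ± 2.68 FPKM in IL-15 tumours and 14.8 ± 3.05 FPKM in control tumours (SD, n = 5 each). The antagonists NOG and SOST had 0 reads in all libraries. Of the 12 intracellular regulators tested 5 were above and 7 below 0 (7 and 5 with library size alone). ZFYVE9, the adaptor SARA that brings SMADs to the receptor, stood at a log2 fold change of -0.37 ± 0.18 and SKI, a SMAD corepressor, at -0.34 ± 0.18 (standard errors).

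The 4 other BMP target genes tested gave no common direction, with 2 on each side of 0. HEY1, a transcriptional repressor that both BMP and Notch induce, was the gene with the unadjusted p under 0.05 on the high side. It measured 0.804, 0.776, 0.664, 0.480 and 0.728 FPKM in IL-15 tumours 1 to 5 and 0.444, 0.478, 0.254, 0.580 and 0.419 FPKM in control tumours 1 to 5. IL-15 tumour 4 alone lay among the controls, as it did, with IL-15 tumour 5, for ID2. The log2 fold change was 0.68 ± 0.29 (standard error), with an edgeR p of 0.034 before and 0.758 after adjustment. The unadjusted p stayed under 0.05 in 4 of the 10 fits that each left out 1 library, being above it without IL-15 tumour 1, 2 or 5 or control tumour 1, 3 or 5. It stayed under 0.05 in 7 of the 9 other settings, but not with no low-count filter or the replicate number as a block. MSX1, a homeobox gene that BMP induces in development, averaged 7.04 ± 1.31 FPKM in IL-15 tumours and 7.62 ± 0.915 FPKM in control tumours. ATOH8, a helix-loop-helix gene that BMP induces in liver and endothelium, was too scarce to be tested and was singled out after its values were seen. It had 6, 4, 26, 5 and 4 reads in IL-15 tumours 1 to 5, most of them in IL-15 tumour 3. Control tumours 1 to 5 had 1, 2, 0, 1 and 1 reads. How many other untested genes have such counts was not determined, so nothing is read from these.

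Of the TGF-beta target genes, 4 of the 5 tested were above 0 (5 with library size alone), none past the test. PMEPA1, a TGF-beta target that feeds back on the SMADs and is also androgen-induced in prostate cells, averaged 49.3 ± 17.7 FPKM in IL-15 tumours and 44.9 ± 15.6 FPKM in control tumours (SD, n = 5 each).

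The partners of the ID proteins were mostly the E protein TCF3. It averaged 18.6 ± 4.32 FPKM in IL-15 tumours and 22.2 ± 3.06 FPKM in control tumours (SD, n = 5 each), with a log2 fold change of -0.25 ± 0.17 (standard error). TCF12 averaged 3.16 ± 0.553 FPKM in IL-15 tumours and 3.33 ± 0.711 FPKM in control tumours, and TCF4 0.169 ± 0.0570 FPKM in IL-15 tumours and 0.155 ± 0.0303 FPKM in control tumours. Of the 6 E proteins and tissue helix-loop-helix genes tested 2 were above 0 and 4 below (3 and 3 with library size alone). The cyclin-dependent kinase inhibitors, several of which ID proteins repress in cultured cells, were below 0 in 6 of 7 under each of the 4 scalings. CDKN2D, one of the 6, was at 0.01 without IL-15 tumour 2. Of all 16913 genes tested, 8621 lay below 0 with TMM and 6307 with library size alone. The median log2 fold change of the 7 was -0.26, beside -0.01 over all genes tested. A link to the ID genes was not tested. CDKN2A had a log2 fold change of -0.86 ± 0.48 and CDKN2B one of -0.68 ± 0.38 (-0.20 without control tumour 3). That of CDKN1A was -0.26 ± 0.27 (standard errors), and -0.06 without control tumour 2. None of the 7 passed the test at an unadjusted p of 0.05.

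**Figure D5:**
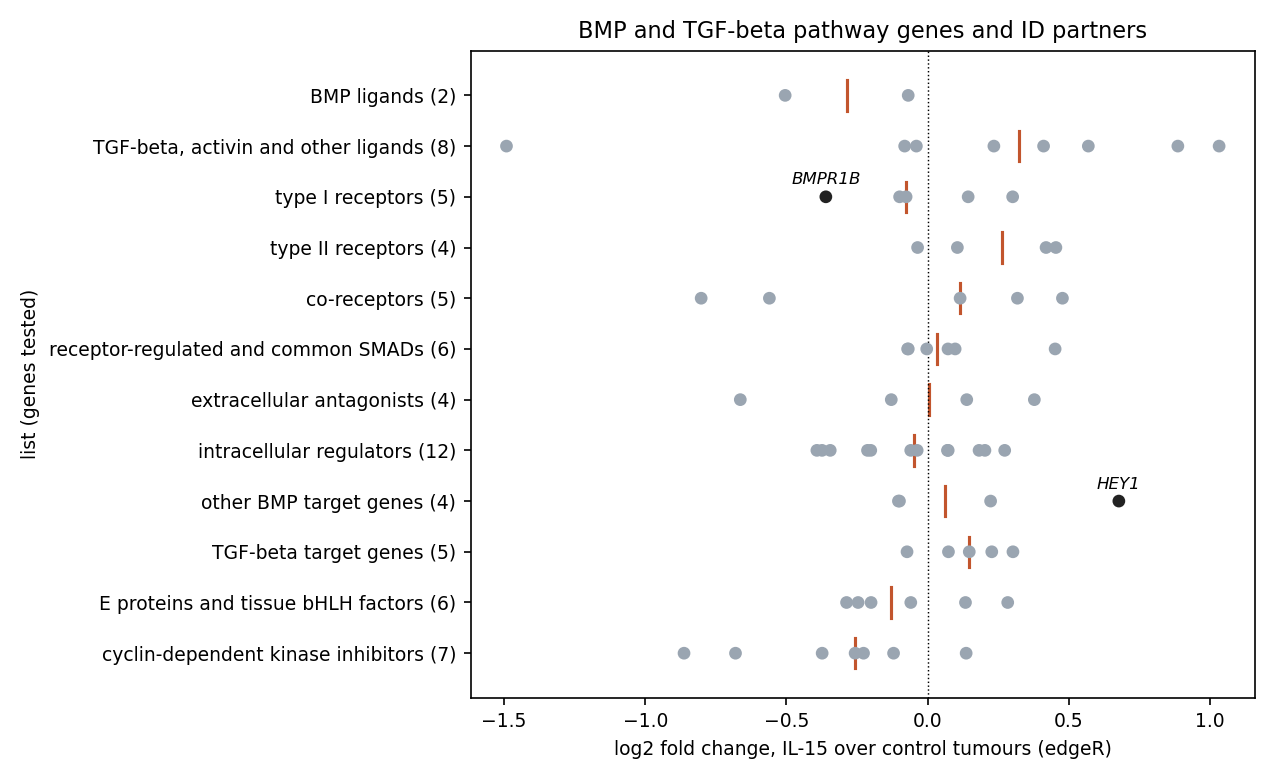
Log2 fold change of IL-15 over control tumours (horizontal axis) for the 68 pathway genes tested, 1 line per list with the number tested, black points for an unadjusted p under 0.05, grey points for the others and orange ticks at each list's median. HEY1 at 0.68 and BMPR1B at -0.36 are the black points, and 6 of the 7 cyclin-dependent kinase inhibitors lie below 0.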

How the data were processed

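Per the labels' protocols, tumour RNA was isolated with TRIzol and read on Illumina instruments. Tools named in the submitters' processing notes, with no role, are HISAT2 2.0.5, featureCounts 1.5.0-p3, fastp, GATK 4.1.1.0 and DESeq2 1.20.0, with the build hg38. How mouse reads were handled, the strandedness and the annotation release are likewise not given in the sources used here. As organism the labels give mouse, while the deposited tables hold human genes, so all values are of reads assigned to human genes. The deposited counts are raw reads per gene and the deposited FPKM values were made by the authors from them by gene length and a library total, per the file headers and the values. FPKM values were used to describe levels.

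Genes were kept with filterByExpr (minimum count 10), scaled by TMM and tested with the quasi-likelihood test of edgeR 4.0.16 (R 4.3.3), 5 libraries a group. DESeq2 1.42.0 and limma 3.58.1 were alternatives, as were other scalings and filters, log2(FPKM + 0.1), a block for the replicate number, and leaving out each library in turn. CPM are TMM-scaled, and correlations use log2 CPM with a prior count of 2. Marker sums entered their correlations as log2(summed CPM + 0.1). The labels do not state separate animals, so a p-value reflects only how these libraries spread, which may be technical. All 45 pairs of libraries differed by more than counting error (chi-square of 17.9 or more for each degree of freedom).

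The genes described and the 12 pathway lists were chosen with earlier results of these data known. Named are all 7 genes, up to 3 tested genes of each list with the smallest unadjusted p and the most abundant, and the 3 nearest protein-coding genes; the report also gives other list genes that were picked for their role or, where it says so, for their values. A gene taken by this rule is not reported here. CCN1 and CCN2 were looked up under their former symbols. The fit was tested on simulated data.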

Additional observations from a re-analysis of the deposited data

How the results depend on the processing

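The log2 fold change of ID2 was 0.85 to 1.07 under the other scalings, filters, tools and units and 0.85 to 1.13 with each library left out. Those of ID1 and SMAD7 kept their sign throughout. ID3 had a log2 fold change of 0.11 without control tumour 4 and stayed below 0 otherwise. SMAD6 and BAMBI, near 0, changed sign between settings (-0.31 to 0.13 and -0.24 to 0.25 with each library left out). ID1 and ID3 had an r of 0.49 to 0.84 with each library left out. Over the whole table, edgeR called 0 genes in every fit but the one with no low-count filter, which called 1, MALINC1, and DESeq2 called 7. Of the 68 pathway genes, 2 had an unadjusted p under 0.05, BMPR1B and HEY1. With library size alone the 2 were HES1 and HEY1. The count was 1 with upper quartile scaling, 3 with DESeq2, and 6 with no low-count filter, of which 3 were among the 68. It was 0 to 7 with each library left out (0 without IL-15 tumour 1, 1 without IL-15 tumour 4 or control tumour 2, 5 without IL-15 tumour 2, 6 without control tumour 5, 7 without control tumour 4). The cause was not tested. Same-numbered libraries deviated together with r from -0.22 to 0.26 over 5 pairs, beside -0.46 to 0.26 over the other pairs. With so few pairs this cannot settle whether the numbers pair the libraries. With the replicate number as a block, edgeR called 0 genes and the log2 fold change of ID2 was 0.91. In that fit 5 pathway genes (AMH, BMPR1B, CDKN2A, NEO1 and TGFBR3) had an unadjusted p under 0.05, or 7.35% of the 68. The highest count with a library left out, 7 without control tumour 4, was 10.3% of the 68. The share of all genes tested in these fits is not given here, so nothing is read from these counts. Depth limits ID1, at 6 to 30 reads a library, and ID4.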
